A study of Rattus norvegicus with 6 samples.

Results

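Fibronectin and the α5β1 integrin that binds it are described here through their 3 genes, Fn1, Itga5 and Itgb1, picked by symbol from a table of 33300 genes. Each symbol had 1 row. The samples were rat tendon stem/progenitor cells, a precursor population of tendon, listed by the submitters as mesenchymal stem cells and as undergoing tenogenic differentiation. They were cultured for 7 days in F12 medium (Control, 3 libraries) or in F12 plus the antioxidant and cysteine source N-acetyl-L-cysteine at 500 uM (NAC, 3 libraries). The sources used here give no strain, animal or passage. No label says whether each library is a culture of its own, so p-values cover only the spread between these libraries, which may be technical.

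Fibronectin is a large secreted glycoprotein that cells assemble into fibrils on their surface, and these fibrils act as a scaffold for collagen and other matrix proteins. An integrin is a pair of an α and a β chain. The α5β1 pair recognises the RGD motif of fibronectin, drives fibril assembly and passes signals to focal adhesion kinase (FAK), Src, PI3K and AKT inside the cell. The α5 chain pairs with β1 only, whereas β1 pairs with many α chains, among them collagen and laminin receptors. In tendon, fibronectin is laid down during development and after injury.

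The RefSeq table matched 2 of the 3 genes, Itga5 and Itgb1, and their upstream sequences are shown for that reason. Any link between these sequences and the expression results was not tested. They are the 250 bases before the gene start, 5′ to 3′ on the gene's strand, from RefSeq (build GRCr8), with GC boxes in capitals. Itga5 lies at chr7:136381306-136381555 on the minus strand and Itgb1 at chr19:73602027-73602276 on the plus strand.
Itga5: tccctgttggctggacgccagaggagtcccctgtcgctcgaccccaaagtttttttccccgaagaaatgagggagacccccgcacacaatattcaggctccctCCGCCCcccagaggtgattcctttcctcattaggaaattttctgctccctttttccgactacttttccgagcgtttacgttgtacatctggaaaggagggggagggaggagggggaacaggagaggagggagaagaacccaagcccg
Itgb1: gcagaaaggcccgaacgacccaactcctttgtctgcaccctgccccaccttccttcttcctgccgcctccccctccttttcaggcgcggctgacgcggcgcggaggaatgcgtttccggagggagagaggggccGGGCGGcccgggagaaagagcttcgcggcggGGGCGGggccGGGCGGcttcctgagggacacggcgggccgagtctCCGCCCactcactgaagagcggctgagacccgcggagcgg

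The GC box (GGGCGG, either strand), a binding motif of Sp-family factors, matched 4 times before Itgb1 and 1 time before Itga5. It occurs in 30.5% of 33469 upstream windows of this length. The G and C content was 71.2% for Itgb1 and 55.6% for Itga5, against a median of 51.2% over all windows. The CCAAT box (CCAAT), the TATA box (TATAAA), the AP-1 site (TGANTCA) and the cyclic AMP response element (TGACGTCA), searched on both strands, had no match in either window. These letters occur in 34.0%, 12.9%, 6.34% and 1.59% of all windows. A match describes letters and not a bound site.

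The libraries held 12.5 to 14.9 M reads, recovered from the deposited FPKM values (fragments per kilobase of gene, scaled to library size). NAC libraries had 1.09 ± 0.00964 and Control libraries 0.968 ± 0.0115 times as many reads as the library size that the authors' scaling implies (SD, n = 3 each). Fold changes are on the deposited scaling unless stated, and the calls that ended with library totals are named. Control 2 stood apart on the second principal component (-21.8, against -4.23 to 10.3 in the rest). The fibroblast and tendon markers were present, with 10 of 10 above 1 FPKM on average. Their levels differed widely: Tnmd averaged 1.98, Mkx 4.59 and Scx 12.0 FPKM over the 6 libraries, against 4092 for Col1a1 and 5055 for Dcn. Of 6 blood cell markers, 1 was above 1 FPKM on average (Cd68). The 6 summed to 4.18 to 7.22 FPKM in Control and 3.78 to 5.19 FPKM in NAC, with Ptprc and Cd3e listed at 0 in all libraries. The 4 endothelial markers with a row summed to 0.283 to 0.670 FPKM in Control and 0.497 to 0.518 FPKM in NAC, with Cdh5 and Emcn listed at 0 in all libraries. The summed level of 5 smooth muscle and pericyte markers was 397 to 490 FPKM in Control and 291 to 361 FPKM in NAC, mostly Acta2, and its part in the results was not tested. In bulk RNA, fewer cells of a type and less RNA per cell cannot be told apart.

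With NAC, fibronectin mRNA nearly doubled, while the mRNAs of its receptor chains rose by far less. Fn1 was 1.91-fold higher, Itga5, which encodes α5, 1.24-fold higher and Itgb1, which encodes β1, 1.17-fold higher on the log2(FPKM + 1) scale. All 3 passed an adjusted p of 0.05 (limma, Benjamini-Hochberg), as did 8.80% of the 12733 genes tested, 6.08% as higher and 2.72% as lower. The series title names the α5β1 integrin and PI3K/AKT, possibly from these same libraries, so the rise of the 2 receptor chains is not independent evidence of direction.

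Fn1 (ENSRNOG00000014288; chromosome 9, 78900103 to 78969078, minus strand) encodes the ligand. It stood at 1671, 1684 and 1804 FPKM in Control 1, 2 and 3 and at 3281, 3311 and 3238 FPKM in NAC 1, 2 and 3. Every NAC library lay far above every Control library, and Control 3 was the highest Control. The log2 fold change was 0.93 ± 0.0427 (SE; 95% interval 0.83 to 1.03; limma adjusted p = 2.79e-04), and 0.92 without Control 2. Its fold change ranked 99 from the top among all tested genes. Fn1 reads numbered 180266 to 222550 in Control and 342901 to 378157 in NAC, or 1.44% to 1.58% and 2.52% to 2.53% of a library. By level it moved from rank 17 to 20 among all genes in Control to rank 9 or 10 in NAC. Scaled to library totals its log2 fold change was 0.76 and with quantile normalization 0.56, and it passed the test under both.

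Itga5 (ENSRNOG00000057451; chromosome 7, 144970444 to 144993652, minus strand) encodes the chain that gives the receptor its specificity for fibronectin. It stood at 52.5, 59.3 and 50.7 FPKM in Control 1, 2 and 3 and at 65.9, 66.3 and 69.5 FPKM in NAC 1, 2 and 3. The groups did not overlap, as in 32.6% of tested genes, and Control 2 came closest to the NAC libraries. The log2 fold change was 0.31 ± 0.0635 (SE; 95% interval 0.16 to 0.46; limma adjusted p = 0.0328). It was 0.37 (adjusted p = 0.00737) without Control 2, and the call ended when any other library was left out (0.26 to 0.32), as it did with no filter on low genes (adjusted p = 0.0606) or no trend in the variance (adjusted p = 0.0650). The adjusted p ran from 0.00737 to 0.119 over 16 alternatives. Over all tested genes 1120 were called with every library in, 1206 without Control 2 and 315 to 597 without any other library.

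Itgb1 (ENSRNOG00000010966; chromosome 19, 61677542 to 61725535, plus strand) encodes the chain that α5 shares with the other β1 integrins. It stood at 291, 302 and 295 FPKM in Control 1, 2 and 3 and at 347, 340 and 348 FPKM in NAC 1, 2 and 3. The groups did not overlap, and the libraries of each group lay close together. The log2 fold change was 0.22 ± 0.0321 (SE; 95% interval 0.14 to 0.30; limma adjusted p = 0.0112), and 0.23 without Control 2. The call ended without NAC 1 (0.22) or NAC 2 (0.23), and the adjusted p ran from 0.00265 to 0.507 over 16 alternatives. The fold change was the smallest of the 3 genes and ranked 1786 from the top among all tested genes, against 1151 for Itga5.

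**Figure D1:**
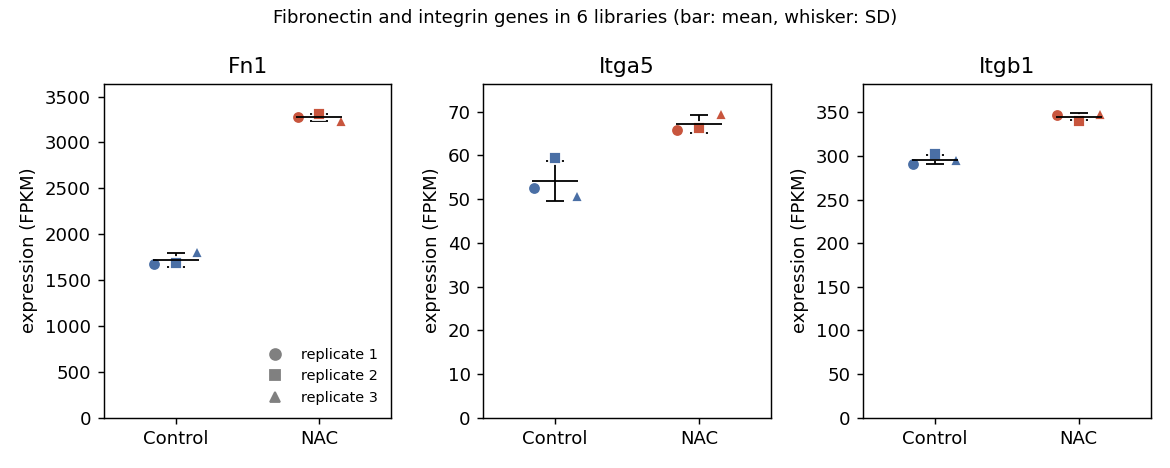
Expression in FPKM (vertical axis from 0) of Fn1, Itga5 and Itgb1 in each Control and NAC library, with symbols for the replicate numbers, a bar for the mean and whiskers for the SD. Fn1 goes from 1671 to 1804 in Control to 3238 to 3311 in NAC, while the groups of Itga5 and Itgb1 lie closer together without overlapping.

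The size of the receptor change depended on how libraries are scaled to each other. With library totals the median over the tested genes moved from -0.0063 to -0.16 on the log2 scale, and 3.67% of all tested genes were called as higher and 29.2% as lower. The values became 0.14 for Itga5 (adjusted p = 0.119) and 0.047 for Itgb1 (adjusted p = 0.291), neither of which passed. Relative to that median they were 0.30 and 0.21, against 0.31 and 0.23 as deposited. Itga5 took 0.0240%, 0.0266% and 0.0232% of the reads in Control 1, 2 and 3 and 0.0264%, 0.0265% and 0.0282% in NAC 1, 2 and 3, so the groups overlapped in this measure. Itgb1 took 0.111% to 0.112% of the reads in Control and 0.113% to 0.118% in NAC, without overlap.

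Ranks within a library do not depend on scaling. Itga5 ranked 1413, 1263 and 1476 by level in Control 1, 2 and 3 and 1134, 1124 and 1079 in NAC 1, 2 and 3, a move up the order in which the groups did not overlap. Itgb1 ranked 206 to 214 in Control and 202 to 207 in NAC, with overlapping groups. With quantile normalization, which gives genes of one rank the same value in every library, Itga5 kept a log2 fold change of 0.27 (adjusted p = 0.0405) and Itgb1 had 0.036 (adjusted p = 0.507). Under that setting 4.45% of all tested genes were called as higher and 3.20% as lower.

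**Figure D2:**
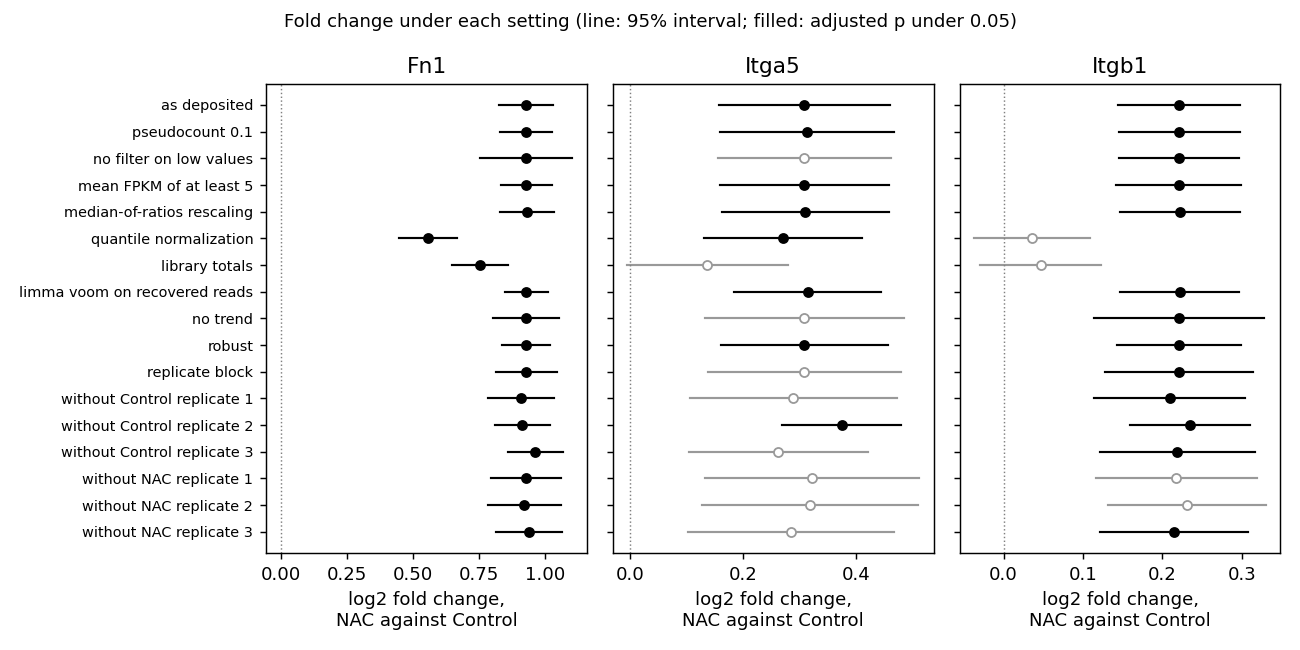
Log2 fold change of NAC against Control (horizontal axis, a separate range for each gene) with its 95% interval under the deposited scaling and 16 alternatives, filled where the adjusted p was under 0.05. Fn1 stays filled throughout, Itga5 turns open in most of the settings that leave out a library, and Itgb1 moves close to 0 with library totals and quantile normalization.

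Within each library the mRNA of the ligand was also set against those of its receptor. Fn1 stood at 31.8, 28.4 and 35.6 times the FPKM of Itga5 in Control 1, 2 and 3 and at 49.8, 49.97 and 46.6 times in NAC 1, 2 and 3. The groups did not overlap, and the log2 ratio was 0.62 higher with NAC (exact two-sided permutation p = 0.1, the smallest that 3 against 3 libraries allow) and 0.29 higher with quantile normalization. Fn1 stood at 5.58 to 6.12 times the FPKM of Itgb1 in Control and at 9.30 to 9.73 times in NAC, a log2 ratio 0.71 higher (exact permutation p = 0.1) and 0.52 higher with quantile normalization. The ratio of Itga5 to Itgb1 was 0.172 to 0.197 in Control and 0.190 to 0.200 in NAC. These groups overlapped, and the log2 ratio differed by 0.092 (exact permutation p = 0.3), or by 0.24 with quantile normalization. In all, 12 measures were tested in this way, and none could pass. They were ratios, shares and ranks within a library and a summed FPKM level of α chains, which depends on scaling. After Benjamini-Hochberg adjustment the permutation p-values of the ratios above became 0.15, 0.15 and 0.327.

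Among all integrin subunits Itgb1 was the most abundant, and α5 was not the leading α chain. The highest level among the α genes was that of Itga11, a collagen receptor chain, at 215 ± 6.67 FPKM in Control and 253 ± 11.5 FPKM in NAC (SD, n = 3). Itgav, whose αv chain also binds the RGD motif, came next, then Itga5 at 54.2 ± 4.57 and 67.2 ± 1.98 FPKM. In Control, Itga5 lay above Itga3, a laminin receptor chain, at 39.2 ± 1.92 FPKM. In NAC, Itga3 reached 67.1 ± 1.73 FPKM, and the levels of the pair did not differ beyond their spread. The β chains that pair with αv were less abundant than β1: Itgb5 stood at 84.1 ± 1.59 and 79.3 ± 2.47 FPKM, Itgb8 at 26.4 ± 1.33 and 27.0 ± 1.09 FPKM and Itgb3 at 1.47 ± 0.429 and 1.79 ± 0.500 FPKM in Control and NAC.

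The α5 share of the summed FPKM of the 12 α chains that pair with β1 was 12.0%, 12.9% and 11.8% in Control 1, 2 and 3 and 11.9%, 11.4% and 12.6% in NAC 1, 2 and 3. The groups overlapped (exact permutation p = 0.6). The mean share differed by -0.248 percentage points on deposited values, and the sign turned without Control 2 (0.089), without NAC 2 (0.025) and with quantile normalization (0.113). Other chains took different shares: Itga3 went from 8.71% to 8.97% in Control to 11.5% to 12.4% in NAC, and Itga11 from 47.0% to 50.2% to 43.9% to 45.7%, both without overlap. The summed level of the 12 α chains was 431 to 461 FPKM in Control and 553 to 581 FPKM in NAC. The log2 ratio of Itgb1 to that sum was -0.61 to -0.55 in Control and -0.77 to -0.67 in NAC, so β1 mRNA was lower relative to its partners in each NAC library (exact permutation p = 0.1, adjusted 0.15).

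**Figure D3:**
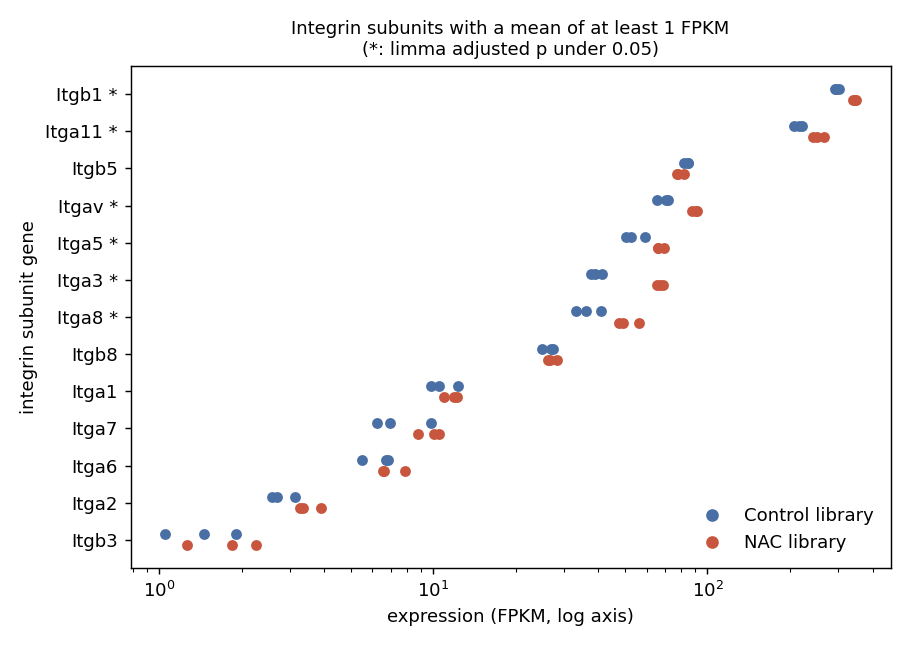
FPKM (log axis) of the integrin subunit genes with a mean of at least 1, with 1 point for each Control or NAC library and an asterisk where limma called the gene. Itgb1 leads in both groups, Itga11 is the highest α chain, and Itga3 draws level with Itga5 in the NAC libraries.

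Of the other α partners of β1, 4 of 8 tested genes rose and none fell, beside 6.08% of all tested genes called as higher and 2.72% as lower. Their median log2 fold change was 0.29 against -0.0063 for all tested genes. Itga3 rose by 0.76 ± 0.0471 (SE, limma adjusted p = 5.20e-04) and Itgav by 0.38 ± 0.0458 (adjusted p = 0.00598), and both passed in all 16 alternatives. With library totals Itga3 had 0.59 and Itgav 0.20. Itga8, the chain of another RGD-binding β1 integrin, stood at 36.0, 41.0 and 33.2 FPKM in Control 1, 2 and 3 and 47.6, 56.4 and 49.1 FPKM in NAC 1, 2 and 3 (0.46 ± 0.0929, adjusted p = 0.0307). The call ended on leaving out any library but Control 2 (0.39 to 0.51). Itga11 rose by 0.23 ± 0.0455 (adjusted p = 0.0278), a call that ended on leaving out Control 1 or 3 or NAC 1 or 2 (0.20 to 0.25), and under library totals (0.060) or quantile normalization (0.11). Itga4, Itga9 and Itga10 were too low to be tested. The list had 5 genes higher without Control 2, beside 859 of all 12733 tested genes. With library totals it had 3 higher and a median of 0.15, beside 3.67% of all tested genes called as higher. In the list of other fibronectin- and RGD-binding subunits, which shares 4 genes with the α partners, 2 of 5 tested genes rose and none fell (median 0.17). These were Itgav and Itga8, while Itgb3, Itgb5 and Itgb8 were not called. Itgb5 was called as lower with library totals (-0.26).

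Among 12 tested proteins that bind fibronectin or act in its assembly, 6 rose and none fell (median 0.21), beside 6.08% and 2.72% of all tested genes. With library totals 2 rose and 1 fell (median 0.042), beside 3.67% and 29.2% of all tested genes. Fbln1, which encodes the fibronectin-binding protein fibulin-1, went from 161, 127 and 159 FPKM in Control 1, 2 and 3 to 233, 224 and 206 FPKM in NAC 1, 2 and 3 (0.57 ± 0.0982, limma adjusted p = 0.0187). The call ended on leaving out NAC 1 or 2 (0.54 to 0.56) and under quantile normalization (0.45). Lox, a collagen and elastin crosslinking enzyme that binds fibronectin, went from 632 ± 17.1 to 748 ± 2.67 FPKM (SD, n = 3; adjusted p = 0.0106), a call lost without NAC 1 or NAC 2 (0.24 for both), and under library totals (0.069) or quantile normalization (0.055). Plaur, the urokinase receptor, which can associate with β1 integrins, went from 14.5 ± 0.952 to 18.6 ± 0.904 FPKM (adjusted p = 0.0245), a call lost on leaving out Control 1 or 3 or NAC 1 or 2 (0.30 to 0.34), and under library totals (0.17). The other genes called, named after their values were seen, were Tnc (0.67), Ltbp1 (0.20) and Bmp1 (0.23). Leaving out any library ended the call of Bmp1 (0.18 to 0.27), and leaving out any but Control 2 those of Tnc (0.56 to 0.71) and Ltbp1 (0.18 to 0.22). Sdc4, the heparan sulfate proteoglycan that acts as a co-receptor for fibronectin, was also chosen after its values were seen and stood at 168 ± 16.4 and 179 ± 9.37 FPKM (adjusted p = 0.474).

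The proteases that cleave fibronectin held the largest share of called genes, with 6 of 9 tested higher and none lower (median 0.33), beside 6.08% of all tested genes called as higher. With library totals 5 were higher and 1 lower (median 0.15), beside 3.67% and 29.2% of all tested genes. With quantile normalization 3 were higher and 1 lower (median 0.11), beside 4.45% and 3.20% of all tested genes. Plau, the urokinase plasminogen activator, went from 12.8, 15.4 and 13.0 FPKM in Control 1, 2 and 3 to 32.5, 31.7 and 29.8 FPKM in NAC 1, 2 and 3 (1.14 ± 0.0775, limma adjusted p = 6.36e-04). Htra1, a secreted serine protease, went from 437, 443 and 445 FPKM to 677, 683 and 667 FPKM (0.61 ± 0.0309, adjusted p = 3.30e-04). In both genes the groups lay far apart, and both passed in all 16 alternatives. Ctsl, a lysosomal cysteine protease, went from 397 ± 11.3 to 498 ± 9.05 FPKM (SD, n = 3; adjusted p = 0.00391) and was not called with quantile normalization (0.12). Mmp2 (0.21), Mmp9 (0.93) and Ctsb (0.34) were also called and are named after their values were seen. So are the tested proteases that were not called, Mmp3, Plat and Mmp14. Mmp14 stood at 635 ± 16.9 FPKM in Control and 630 ± 28.8 FPKM in NAC (SD, n = 3; limma adjusted p = 0.911). It was the gene called as lower with library totals (-0.18) and with quantile normalization (-0.23). The medians over all tested genes under these settings were -0.16 and -0.021. Leaving out any library but Control 2 ended the call of Mmp2 (0.19 to 0.22), which turned to -0.038 under quantile normalization, and leaving out any but Control 1 or 2 that of Mmp9 (0.83 to 1.05).

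Of 24 tested integrin activators, inhibitors and adhesion adaptors, 2 rose and 2 fell, with a median of -0.021. Beside them, 8.80% of all tested genes were called in either direction. Lims2, which encodes the adaptor PINCH2 of the integrin-linked kinase complex, stood at 17.1, 15.8 and 15.1 FPKM in Control 1, 2 and 3 and at 9.84, 11.5 and 10.2 FPKM in NAC 1, 2 and 3 (-0.56 ± 0.0741, limma adjusted p = 0.00800). It was lower in every NAC library and passed in all 16 alternatives. Vcl, the talin- and actin-binding protein vinculin, went from 85.1 ± 2.02 to 99.6 ± 4.61 FPKM (SD, n = 3; adjusted p = 0.0310), a call lost on leaving out Control 1 or 3 or NAC 1 or 2 (0.20 to 0.22), and under library totals (0.050). Tln2, a talin, which activates integrins from the inside, went from 4.38 ± 0.263 to 5.77 ± 0.412 FPKM (adjusted p = 0.0464), a call lost when any 1 library was left out (0.29 to 0.38). Parva, which encodes α-parvin and is named after its values were seen, fell by 0.24 on the log2 scale (adjusted p = 0.0489), a call lost on leaving out any library but Control 2 (-0.27 to -0.20) and after median-of-ratios rescaling. With library totals 12 members were lower and none higher (median -0.18), where 29.2% of all tested genes were called as lower and the median over all was -0.16. With quantile normalization 1 was higher and 4 were lower, beside 4.45% and 3.20% of all tested genes.

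Downstream of the receptor, 1 of 26 tested genes of FAK, Src, PI3K and AKT signalling passed, and it fell. Over all tested genes 8.80% were called in either direction, and the difference between these shares was not tested. The signalling gene that passed was Nedd9, a docking protein phosphorylated by FAK and Src, at 19.6, 18.5 and 18.8 FPKM in Control 1, 2 and 3 and at 12.8, 13.5 and 14.1 FPKM in NAC 1, 2 and 3 (-0.47 ± 0.0536, limma adjusted p = 0.00456). It passed in all 16 alternatives. Pik3ca, which encodes a catalytic subunit of PI3K, ran from 9.77 to 10.6 FPKM in Control and from 9.86 to 10.8 FPKM in NAC (adjusted p = 0.978). Akt1 stood at 86.3, 94.1 and 89.6 FPKM in Control 1, 2 and 3 and at 98.0, 98.2 and 98.1 FPKM in NAC 1, 2 and 3. Its groups did not overlap, but the difference of 0.12 did not pass (adjusted p = 0.113), passed without Control 2 (0.16) and was -0.049 with library totals. At an unadjusted limma p under 0.05, 4 genes of the list were higher and 3 lower, beside 3355 of all 12733 tested genes in either direction. Limma voom called 1 as higher and 1 as lower, beside 1035 and 529 of all 12733. The list's median was -0.016. With library totals 12 members were lower and none higher (median -0.18), beside the same 29.2% and -0.16 over all tested genes. These are mRNA levels and do not measure kinase activity.

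None of 16 tested genes of integrin endocytosis and recycling passed in limma, beside 8.80% of all tested genes, a difference that was not tested. At an unadjusted limma p under 0.05, 3 were higher and 2 lower, beside 3355 of all 12733 tested genes in either direction. Limma voom called 1 as higher, beside 1035 of all 12733. The list's median was 0.017, and -0.011 under quantile normalization. Under library totals it turned to -0.15 and 5 genes were lower, beside 29.2% of all tested genes called as lower. The most abundant were Cav1, the caveolar coat protein, at 286 ± 15.1 and 317 ± 4.74 FPKM (SD, n = 3; adjusted p = 0.0881), and Ap2m1, a subunit of the clathrin adaptor, at 151 ± 5.88 and 142 ± 3.96 FPKM (adjusted p = 0.257). Cav1 passed without Control 2 (0.19) and changed sign under library totals (-0.021) and quantile normalization (-0.018). Ap2m1 passed as lower with library totals (-0.26). Over all lists, each gene counted once and the 3 members left out, 18 of 98 tested genes were higher and 3 lower, beside 6.08% and 2.72% of all tested genes. Without Control 2 the list counts were 21 and 4, beside 859 and 347 of all 12733 tested genes. After quantile normalization they were 9 and 6, beside 4.45% and 3.20% of all tested genes. With limma voom they were 20 and 3, beside 1035 and 529 of all 12733. At an unadjusted limma p under 0.05 they were 29 and 9, beside 3355 of all 12733 in either direction. With library totals they were 10 and 32, beside 3.67% and 29.2% of all tested genes. With no filter or with no trend the calls of Itga8, Itga11, Tnc, Bmp1, Parva, Mmp2 and Mmp9 ended as well, with no filter that of Tln2, and with no trend those of Vcl and Ltbp1. Library totals also ended the calls of Ltbp1 (0.027), Bmp1 (0.056), Tln2 (0.18) and Mmp2 (0.036), and quantile normalization those of Ltbp1 (0.14), Bmp1 (0.20), Vcl (0.15) and Ctsb (0.14).

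**Figure D4:**
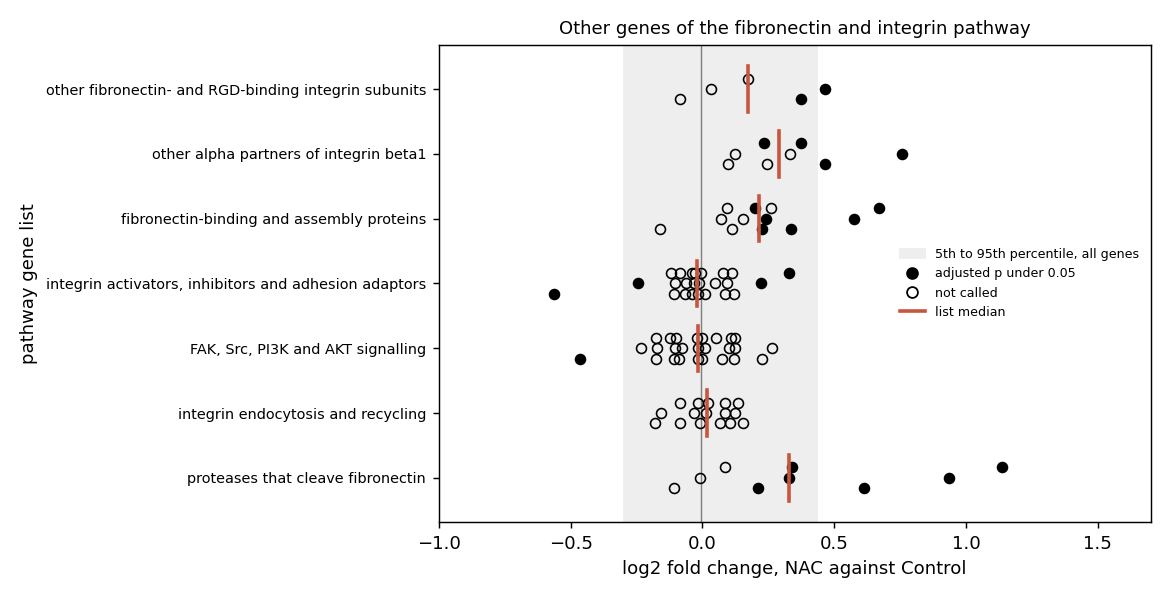
Log2 fold change of NAC against Control (horizontal axis) for each tested gene of the pathway lists, filled where the adjusted p was under 0.05, with list medians in red and the 5th to 95th percentile of all tested genes in grey. Integrin α partners, fibronectin-binding proteins and proteases lie mostly to the right of 0, while adaptors, signalling and trafficking genes centre on it.

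The genes whose levels followed each member most closely over the 6 libraries were taken as those with the smallest root mean square difference in centred log2(FPKM + 1), among 5870 named genes with a mean of at least 10 FPKM. For Fn1 these were Lum (0.0256), a small proteoglycan that binds collagen fibrils, Col1a1 (0.0602), the main fibrillar collagen chain, and Pdia6 (0.0619), a disulfide isomerase of the endoplasmic reticulum. Lum went from 771, 753 and 798 FPKM in Control 1, 2 and 3 to 1526, 1508 and 1453 FPKM in NAC 1, 2 and 3, with Control 3 the highest Control as for Fn1. For Itga5 they were Lgals3 (0.0246), which encodes galectin-3, the homeobox gene Prrx2 (0.0256) and Sh3glb2 (0.0295). In each of these Control 2 was the highest Control library, as for Itga5. For Itgb1 they were Tmsb10 (0.00874), an actin-binding thymosin, Calm3 (0.0135), a calmodulin gene, and Ppdpf (0.0137). These likenesses describe 6 libraries that share their groups and depths. A shared highest Control library follows in part from how the genes were picked and is no further evidence of likeness.

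Counting error was smaller than the spread between libraries for each gene in both groups. In Control, counting error alone would give a coefficient of variation of 0.224% for Fn1, 1.75% for Itga5 and 0.821% for Itgb1, whereas the libraries varied by 4.25%, 8.43% and 1.81%. In NAC the libraries varied by 1.12%, 2.94% and 1.19%, against 0.165%, 1.60% and 0.773% from counting. For each gene the spread was wider in Control than in NAC, which was not tested.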

How the data were processed

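RNA-seq libraries (SMARTer mRNA-Seq kit, per the labels' protocols) were made from 6 samples. The authors deposited FPKM values and a gene length for each gene. The submitters' processing notes name the mouse builds GRCm38 and mm10, while the gene identifiers are those of rat. The sources used here give no aligner, counting method, strand setting or build for the coordinates, and without strand, antisense reads cannot be told apart. Columns headed N were taken as Control by elimination.

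FPKM times gene length gave whole multiples of 1 step per library (100% of values within 0.01), from which reads were recovered. Genes averaging at least 1 FPKM were tested on log2(FPKM + 1) with limma 3.58.1 in R 4.3.3 (eBayes with trend, group only, two-sided, Benjamini-Hochberg adjustment over 12733 genes, threshold 0.05). Unadjusted, 3355 genes lay under 0.05. On simulated data for this comparison with 12733 genes, 50 genes were changed at each fold size, and the test recovered 8 at 1.25-fold, 31 at 1.5-fold, 39 at 2-fold and 48 at 4-fold, besides 4 of 12533 unchanged genes. Libraries of a group differed beyond sampling noise (chi-square over degrees of freedom 3.59 to 9.20), and each counted as 1 replicate. Ratios, shares, ranks and the summed FPKM of the α chains that pair with β1 were compared by exact permutation. Read numbers carry counting error only, whereas the 95% intervals are limma's and rest on the spread between libraries.

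Members and lists were chosen with earlier results of these data known. Besides the 3 members, Pik3ca and Akt1, the text names up to 3 called genes of each list with the lowest adjusted p, or the 2 most abundant where none was called, and 3 genes most like each member. Of 162 list entries, 2 had no row, and none needed an older symbol. The marker lists covered fibroblast and tendon (10 tested, 4 higher), endothelial (0 tested), blood (1 tested, 0 called), epithelial (1 tested, 0 called), smooth muscle and pericyte (4 tested, 1 lower), skeletal muscle (2 tested, 0 called), adipocyte (1 tested, 0 called) and neural (1 tested, 0 called). Alternatives were other pseudocounts, filters, scalings and variance models, limma voom on recovered reads, a replicate block and leaving out each library. RefSeq upstream sequences were matched for 2 of the 3 members. Tables and plots were made in Python 3.11.15 (numpy 2.4.6, pandas 2.3.3, matplotlib 3.10.9).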

Additional observations from a re-analysis of the deposited data

How the results depend on the processing

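Fn1 kept its direction and its call in all 16 alternatives. Itga5 lost its call without a filter (0.31, adjusted p = 0.0606), with library totals (0.14), without a trend (0.31, adjusted p = 0.0650) and with the replicate block (0.31, adjusted p = 0.0752). With 1 library left out Itga5 ran from 0.26 to 0.37 and kept its call only without Control 2. Itgb1 lost its call with library totals (0.047) and quantile normalization (0.036). With 1 library left out Itgb1 ran from 0.21 to 0.23 and lost its call without NAC 1 (limma adjusted p = 0.0592) or NAC 2 (adjusted p = 0.0537). The causes were not tested. Counting error lay below the spread between libraries for the 3 genes. Quantile normalization moved the differences in log2 ratio to 0.29 for Fn1 to Itga5, 0.52 for Fn1 to Itgb1 and 0.24 for Itga5 to Itgb1, and turned the Itga5 share of α chains to 0.113 percentage points. With 1 library left out that share ran from -0.55 to 0.089 and turned in sign without Control 2 (0.089) and NAC 2 (0.0248).

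Over all genes 1120 were called (69.1% of them higher), 4189 with library totals (11.1% higher), 576 with the replicate block and 315 to 1206 with 1 library left out. The split was 58.2% higher among the 975 genes called with quantile normalization. Without a filter 756 of 19944 tested genes were called, and without a trend 755 of 12733. In the pathway lists 21 genes were called, 13 without a filter, 42 with library totals (10 higher, 32 lower), 12 without a trend and 8 to 25 with 1 library left out. With quantile normalization 9 were higher and 6 lower.

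Replicate numbers were not taken as pairs. Same-numbered libraries had deviations from their group means correlated at r = 0.0627, 0.0589 and -0.0502, and not every library correlated best with its own number. With the replicate number as a block the adjusted p was 0.00647 for Fn1, 0.0752 for Itga5 and 0.0465 for Itgb1, and 14 genes of the pathway lists were called, without Ltbp1, Bmp1, Plaur, Tln2, Parva, Vcl and Mmp2.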

Other observations

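Further integrin subunits averaged under 1 FPKM and were not tested. Itgae, an α chain of lymphocytes, had 32 to 58 reads a library (0.812 ± 0.157 FPKM in Control and 0.964 ± 0.118 FPKM in NAC, SD, n = 3), and its groups overlapped. Itgb2, the β chain of white blood cell integrins, had 4 to 21 reads a library (0.166 ± 0.0692 FPKM in Control and 0.394 ± 0.119 FPKM in NAC, SD, n = 3) and its partner Itgax 2 to 20 reads (0.0862 ± 0.0667 and 0.274 ± 0.0394 FPKM). Their Control and NAC values did not overlap, but neither gene was tested. Itgam and Itgal, further partners of that chain, had at most 3 and 2 reads. Itgb4, the laminin-binding partner of α6 in epithelia, had 26 to 39 reads, and its groups overlapped.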
